A study of Mus musculus with 18 samples.

Results

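Collagens are the fibrous proteins of the extracellular matrix. This account covers the mouse genes that encode collagen chains, taken as every protein-coding gene whose symbol has the form Col, a number, the letter a and a number. Of the 55450 gene IDs in the count table, 44 met that rule, and 38 of these passed the filter on low counts and were tested among 17912 genes. By structure, 11 were chains of fibrillar collagens, 9 belonged to basement membranes or the zone beside them, and 24 were of other kinds. The 6 members below the filter (Col6a5, Col4a4, Col9a2, Col4a3, Col6a6 and Col9a1) had between 2 and 45 counts summed over all libraries.

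The counts came from polyadenylated RNA of C2C12, an established mouse line of muscle precursors, or myoblasts, which fuse into multinucleated myotubes in low serum. There were 18 libraries in 6 groups of 3, namely myoblasts and day 3 myotubes of 3 lines. The control line was a sorted population that had received the pX458 vector without guides. The other lines, 2-4 and 2-7, were each grown from 1 cell after Cas9 editing with paired guides against the Meg3 promoter region, and the labels name them Dlk1-Dio3 overexpressor and Dlk1-Dio3 knockout. Dlk1-Dio3 is an imprinted domain that includes the noncoding RNA Meg3. Because each genotype was 1 clone, and the control was a population, genotype and clone cannot be told apart. The labels do not say that the replicates A, B and C were separate cultures, so p-values measure the spread between these libraries, which may be technical.

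Meg3 was at 107, 149 and 143 CPM in the overexpressor myoblasts and at 77.5, 97.1 and 103 CPM in its myotubes, and had 0 counts in every control and knockout library. CPM is the count of a gene scaled to a common library size with edgeR's TMM factors. The knockout label therefore could not be checked by Meg3, and directions for that clone rest on its label. Libraries held 41544358 to 79140702 counts, so that 3 counts, the limit that a count of 0 allows, corresponded to 0.0375 to 0.0693 CPM. Replicate C of the overexpressor myotubes stood apart from its group, with a chi-square per degree of freedom of 109.9 and 114.5 against replicates B and A, compared with 22.2 between A and B. The 7 skeletal myogenic markers summed to 1273 to 1455 CPM in control, 2532 to 3153 in overexpressor and 7807 to 9447 in knockout myoblasts. In myotubes they summed to 9500 to 10103 CPM in the control, 15835 to 17447 in the overexpressor and 20373 to 24713 in the knockout. None was at the floor in any group.

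A collagen molecule is a trimer of alpha chains wound into a triple helix. Types I, III and V form the banded fibrils of connective tissue, type IV forms the sheet of the basement membrane that wraps each muscle fibre, and type VI forms beaded filaments that join basement membrane and fibrils. Many trimers need chains from different genes in fixed proportion. In muscle, type I and III collagens are made largely by connective tissue cells, whereas muscle cells contribute type IV and other basement membrane chains.

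Some partner genes are neighbours. Col4a1 and Col4a2 lie head to head on chromosome 8, with start sites 21 bases apart. Col6a2 and Col6a1 lie on the same strand of chromosome 10, 85161 bases apart and with no protein-coding gene between them. The windows below run from 250 bases before to 50 bases after the RefSeq start site (GRCm38.p6, the assembly also called mm10), 5′ to 3′ on the strand of the gene, and are shown because each pair holds partner chains of 1 collagen type that are described below. The type VI pair was lower than control in overexpressor myoblasts and in the myotubes of both clones. In knockout myoblasts only Col6a2 was called, as higher than control. Capitals mark matches on either strand to the CCAAT box (CCAAT) and to the GC box (GGGCGG).
Col4a1 (chr8:11312777-11313076, minus strand): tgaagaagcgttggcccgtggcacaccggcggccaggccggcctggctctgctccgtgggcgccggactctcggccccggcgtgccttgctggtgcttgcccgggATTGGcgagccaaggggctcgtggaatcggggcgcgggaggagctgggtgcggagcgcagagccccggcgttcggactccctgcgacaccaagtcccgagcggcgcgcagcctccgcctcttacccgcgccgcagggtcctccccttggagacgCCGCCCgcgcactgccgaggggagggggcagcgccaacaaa
Col4a2 (chr8:11312555-11312854, plus strand): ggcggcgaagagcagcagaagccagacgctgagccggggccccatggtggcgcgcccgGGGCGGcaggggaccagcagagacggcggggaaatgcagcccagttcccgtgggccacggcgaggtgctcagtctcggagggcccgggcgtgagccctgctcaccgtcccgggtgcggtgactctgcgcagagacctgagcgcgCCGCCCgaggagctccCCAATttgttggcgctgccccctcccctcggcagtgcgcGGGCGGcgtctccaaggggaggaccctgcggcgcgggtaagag
Col6a1 (chr10:76725995-76726294, minus strand): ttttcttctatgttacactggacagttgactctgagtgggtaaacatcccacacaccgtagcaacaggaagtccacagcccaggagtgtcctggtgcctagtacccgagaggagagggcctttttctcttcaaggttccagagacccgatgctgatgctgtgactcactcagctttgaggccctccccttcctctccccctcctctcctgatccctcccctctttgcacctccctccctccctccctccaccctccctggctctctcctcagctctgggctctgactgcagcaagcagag
Col6a2 (chr10:76623581-76623880, minus strand): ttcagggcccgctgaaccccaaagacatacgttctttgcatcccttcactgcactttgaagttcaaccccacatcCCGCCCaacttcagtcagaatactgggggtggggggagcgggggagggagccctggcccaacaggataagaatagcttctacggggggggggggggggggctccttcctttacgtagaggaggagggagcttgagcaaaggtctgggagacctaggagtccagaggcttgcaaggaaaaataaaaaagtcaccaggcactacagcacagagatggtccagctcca
The windows of the first pair overlap in part, in opposite orientation, and both held CCAAT and GC box matches. The only GC box match of Col4a1 lies in that overlap and is also counted for Col4a2. The Col6a1 window, whose RefSeq start lies 124 bases inside the annotated gene, held neither motif. The Col6a2 window held a single GC box match. A second RefSeq start of that gene lies 226 bases downstream, and its window, not printed, held 3 GC box matches. Windows existed for 35 of the 44 members, and 1 window per member, that nearest the annotated gene start, was counted. The background counts every window, so a gene with several starts enters it more than once. A GC box was present in 22 of the 35 members (62.9%), against 35.7% of the 32851 mouse promoter windows. A CCAAT box was present in 12 (34.3%, against 37.4%). The TATA box (TATAAA) was present in 5 (14.3%, against 13.6%) and the E-box (CANNTG) in 19 (54.3%, against 72.3%). These matches describe letters in a window and do not show binding.

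Control myotubes held far more collagen RNA than any other group. Collagen genes took 4.81% ± 0.0563 (SD, n = 3) of all counts there, against 1.58% ± 0.0331 in control myoblasts. The share was 1.15% ± 0.0297 in overexpressor myoblasts and 1.12% ± 0.135 in its myotubes. In the knockout clone it was 1.67% ± 0.0698 in myoblasts and 1.33% ± 0.103 in myotubes. The control line thus carried a slightly smaller share than the knockout clone before differentiation (highest library 1.61% against lowest 1.62%). Afterwards its share was larger, with no overlap between any control myotube library (lowest 4.75%) and any clone myotube library (highest 1.43%). Fibrillar chains made up most of the difference, at 3.6% of counts in control myotubes, 0.834% in overexpressor myotubes and 0.936% in knockout myotubes. Basement membrane chains made up a small share, between 0.102% and 0.184% of counts in every group mean. In overexpressor myotubes that share (0.0943 to 0.114%) lay below every control myotube library (0.143 to 0.151%), while knockout myotubes (0.146 to 0.167%) overlapped the control. In bulk samples, fewer cells of a type and less RNA per cell cannot be told apart.

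**Figure D1:**
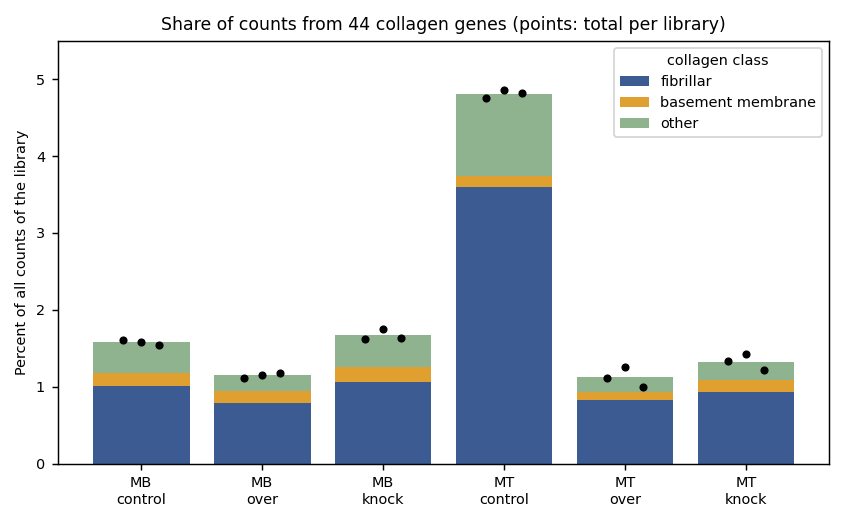
Share of each library's counts that came from the 44 collagen genes (vertical axis, percent), stacked by class as group means, with points for the total of each of 3 libraries. Control myotubes sit at 4.75 to 4.87%, and every other library lies at or below 1.75%.

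Most markers of fibroblasts rose with this share in the control line, where Dcn, Pi16, Dpt and Lum rose on differentiation and Pdgfra fell. The 6 fibroblast markers (Pdgfra, Dcn, Lum, Thy1, Dpt, Pi16) summed to 189 to 215 CPM in control myotubes and to 34.7 to 36.9 in control myoblasts. In the overexpressor they went from 33.9 to 36.3 CPM in myoblasts to 17.9 to 21 CPM in myotubes. In the knockout they went from 44.2 to 47.2 CPM up to 64.8 to 76.1 CPM, while its collagen share was lower in myotubes. None of the 6 was at the floor in control myotubes, Lum and Thy1 were at the floor in overexpressor myotubes, and Thy1 was at the floor in knockout myotubes. The part of this difference in the collagen levels was not tested. Of the 4 endothelial markers the sum never passed 0.669 CPM, and of the 3 leukocyte markers it never passed 1.82 CPM. The cartilage genes Acan and Matn1, the bone gene Ibsp and the fat cell genes Adipoq and Plin1 were at the floor in every group. Others of these lists were expressed. The 4 osteoblast markers summed to 95.4 to 103 CPM in control myoblasts and to 70.8 to 73.8 in control myotubes. In clone myotubes they summed to 11.3 to 28.2 CPM, and Runx2 was lower than control in both clones at both stages. The 3 fat cell markers summed to 3.47 to 19.5 CPM across groups. Of these, Pparg was higher than control in overexpressor myoblasts, and lower in knockout myoblasts and in the myotubes of both clones. The 4 smooth muscle and pericyte markers summed to 102 to 121 CPM in control myotubes and to 23.9 to 33.5 CPM in clone myotubes, a fall in Cspg4, while the much scarcer Cnn1 was higher in both clones. The 3 tendon markers summed to 142 to 160 CPM in control myotubes, to 407 to 497 CPM in those of the overexpressor and to 161 to 174 CPM in those of the knockout. In the overexpressor Scx was higher than in control myotubes, and Tnmd and Mkx were lower. Whether these differences bear on the collagen levels was not tested.

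Per kilobase of exon, Col3a1 was the most abundant collagen in all 6 groups. In control myoblasts it reached 287 CPM per kb ± 7.57, followed by Col1a2 (224 ± 0.327), Col6a1 (185 ± 5.72), Col5a2 (178 ± 3.5), Col5a1 (144 ± 0.952) and Col1a1 (119 ± 3.75). Col6a1 and Col5a2, the third and the fourth, lay close together on this scale. In control myotubes the order was Col3a1 (1865 ± 71.2), Col6a1 (1024 ± 55.0), Col1a1 (942 ± 82.9), Col5a1 (664 ± 24.6) and Col1a2 (515 ± 11.6), and Col6a1 and Col1a1 did not differ beyond their spread. Scaled to the longest coding transcript instead, Col1a2 came first in control myoblasts at 520.5 CPM per kb and Col3a1 second at 506. On that scale in control myotubes Col3a1 stayed first (3290), and Col1a2 moved up to second (1197), ahead of Col6a1 (1094) and Col1a1 (1043). The order shifts because the merged exons of Col1a2 are much longer than its coding transcript.

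In myoblasts most collagen changes in the overexpressor were falls, whereas rises outnumbered falls in the knockout. In the overexpressor, 4 of the 38 tested collagen genes were higher and 17 lower than in the control, with a median log2 difference of -0.47 against 0.02 over all genes. Among all 17912 genes, 20.7% were called higher and 19.7% lower, 40.4% in either direction. In the knockout, 15 were higher and 10 lower (median 0.30 against 0.02), where the background was 26.4% higher and 26.6% lower, 53.0% in all. Of the 11 fibrillar genes 7 fell in the overexpressor and 4 in the knockout, and 1 and 5 rose. The 95% intervals of all 4 tested type IV genes included 0 in overexpressor myoblasts, while in the knockout 3 rose and 1 fell. These comparisons share the control libraries. A call here means an adjusted p under 0.05 in edgeR's quasi-likelihood test, with Benjamini-Hochberg adjustment over all genes tested.

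In myotubes both clones lay below the control. The overexpressor had 3 collagen genes higher and 24 lower (background 26.2% higher and 30.9% lower, 57.1% in all), and the knockout had 8 higher and 24 lower (background 31.0% and 37.0%, 68.0% in all). The median log2 difference was -1.29 in the overexpressor and -1.26 in the knockout, against -0.04 and -0.07 over all genes. These comparisons share the control libraries. Among fibrillar genes 7 fell in each clone, and among the 4 tested type VI genes 3 fell in each. Of the 7 tested basement membrane genes, 5 were lower and 2 did not pass the test in the overexpressor, and 5 were lower and 2 higher in the knockout. The clones also differed from each other. Directly compared, overexpressor myoblasts were higher than knockout myoblasts for 4 members and lower for 24 (background 25.7% and 26.9%, 52.6% in all; median -0.96 against -0.02). Overexpressor myotubes were higher than knockout myotubes for 12 and lower for 21 (background 30.6% and 29.1%, 59.7% in all; median -0.48 against 0.02).

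**Figure D2:**
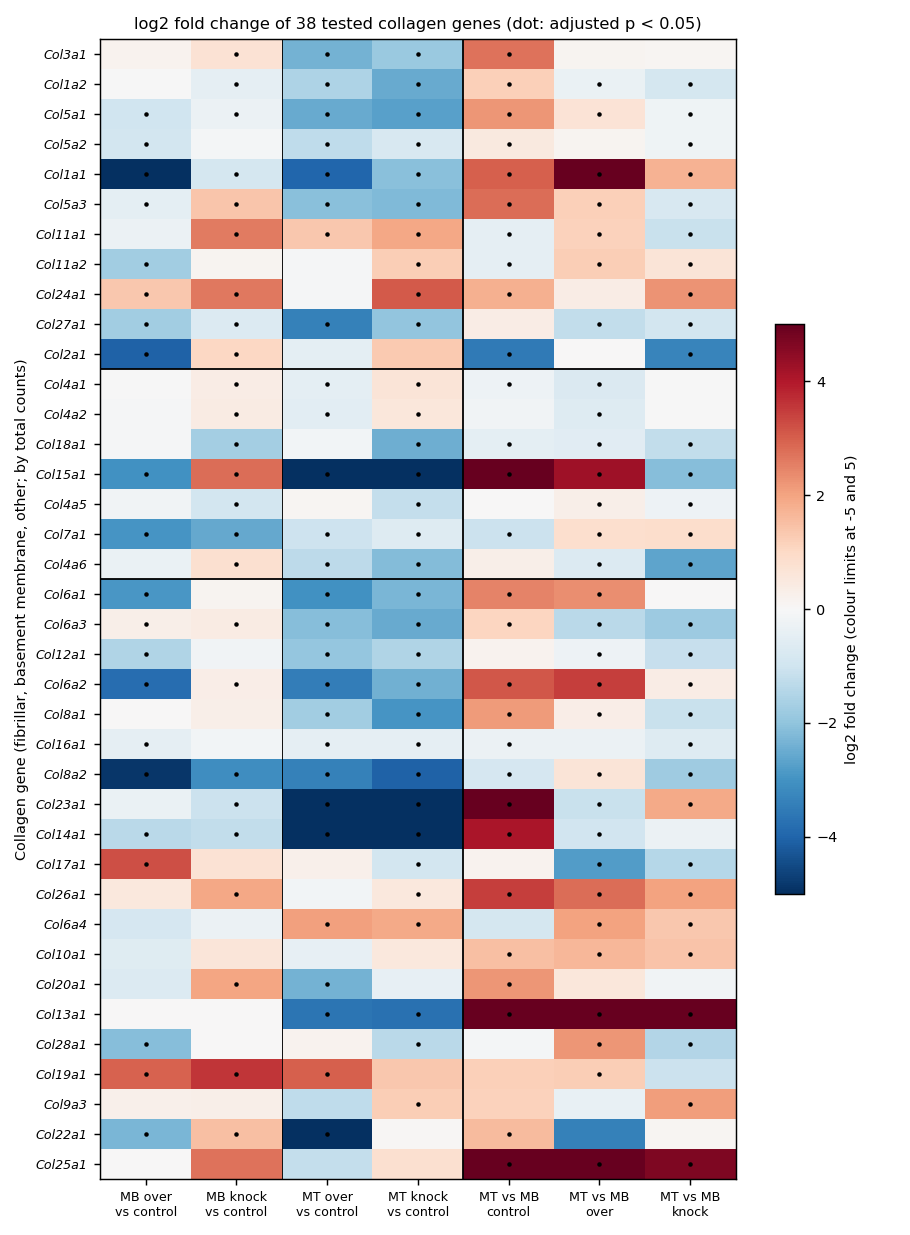
Colour gives the log2 fold change of the 38 tested collagen genes (rows, grouped as fibrillar, basement membrane and other, and ordered by total counts within each group) in 7 comparisons (columns), and dots mark adjusted p under 0.05. Blue fills most of both myotube columns, where 24 genes were lower in each clone, and red most of the control differentiation column, where 20 were higher.

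Among the members described, the largest fall in overexpressor myoblasts was in type I collagen, the main fibril protein of skin, tendon and bone, whose molecule pairs the chains of Col1a1 and Col1a2. Col1a1 (chr11:94936224-94953042, plus strand) stood at 775, 805 and 757 CPM in control myoblasts and at 10.4, 9.04 and 10.1 CPM in overexpressor myoblasts. The libraries did not come near each other, and the difference was 79.1-fold (log2 -6.31, SE 0.22, adjusted p = 2.96e-12). Knockout myoblasts lay at 370.3, 571 and 345 CPM, lower than control (log2 -0.86, SE 0.17, adjusted p = 0.000556). Its partner Col1a2 (chr6:4504814-4541544, plus strand) did not follow in the overexpressor. It was at 2785, 2779 and 2787 CPM in control myoblasts and at 2698, 2669 and 2788 CPM in overexpressor myoblasts, a log2 difference of -0.03 with a 95% interval of -0.21 to 0.14. In knockout myoblasts Col1a2 was at 1951, 2152 and 1948 CPM and lower than control (log2 -0.46, SE 0.08, adjusted p = 0.000107).

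The ratio of these partners within a library does not depend on library scaling. The log2 ratio of Col1a1 to Col1a2 counts per kilobase was -0.92 ± 0.047 (SD, n = 3) in control myoblasts, -1.35 ± 0.313 in knockout myoblasts and -7.19 ± 0.0911 in overexpressor myoblasts. In myotubes it was 0.87 ± 0.0936 in the control, 1.29 ± 0.112 in the knockout and -1.55 ± 0.519 in the overexpressor. Col1a1 exceeded Col1a2 per kilobase in all 6 control and knockout myotube libraries and in none of the other 12. The level of such a ratio depends on the length used, and with the longest coding transcript the mean was -0.20 in control and 0.22 in knockout myotubes. The differences between groups do not depend on the length.

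Differentiation raised Col1a1 in all 3 lines. In control cells it went to 5693, 6769 and 6089 CPM, a rise of 2.99 in log2 (SE 0.18, adjusted p = 8.43e-10). In the overexpressor it went to 480.0, 303 and 402 CPM, a rise of 5.33 (SE 0.21, adjusted p = 3.61e-12) from its low start, and still lay 15.6-fold below control myotubes (log2 -3.97, SE 0.19, adjusted p = 7.07e-11). The knockout reached 1293, 1526 and 1494 CPM, a rise of 1.75 (SE 0.18, adjusted p = 4.47e-07). Both clones responded differently from the control, the overexpressor by 2.34 more (SE 0.25, adjusted p = 2.2e-06) and the knockout by 1.24 less (SE 0.24, adjusted p = 0.000601). Col1a2 rose only in the control among the 3 lines, to 6256, 6545 and 6399 CPM (log2 1.20, SE 0.08, adjusted p = 4.67e-10). It fell by 0.32 in the overexpressor, to 2102, 2545 and 1875 CPM, and by 0.86 in the knockout, to 1090.0, 1152 and 1084 CPM. The difference in response from the control was -1.52 (SE 0.12, adjusted p = 8.44e-09) and -2.06 (SE 0.12, adjusted p = 1.62e-10).

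Type III collagen is a homotrimer of the Col3a1 chain and forms the thin reticular fibrils of soft tissues. Col3a1 (chr1:45311538-45349706, plus strand) was at 2752, 2898 and 2800.3 CPM in control myoblasts and at 19044, 17656 and 18215 CPM in control myotubes. That rise was 6.5-fold (log2 2.7, SE 0.11, adjusted p = 3.52e-13), and Col3a1 alone made up 34.5% of collagen counts in control myotubes. The clones showed no such rise. In the overexpressor the gene was at 3224, 3127 and 3276 CPM in myoblasts and at 3292, 4419.7 and 2961 CPM in myotubes, a log2 change of 0.15 with a 95% interval of -0.08 to 0.38. In the knockout it was at 4541, 4947 and 4615 CPM in myoblasts and at 4957, 5449 and 4573 CPM in myotubes, a change of 0.09 with an interval of -0.14 to 0.32. The stages overlapped in both clones, and the response differed from the control in both (log2 -2.55, SE 0.15, adjusted p = 3.18e-10, and log2 -2.61, SE 0.15, adjusted p = 2.27e-10). Before differentiation Col3a1 was higher in knockout than in control myoblasts (log2 0.74, SE 0.11, adjusted p = 1.13e-05).

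**Figure D3:**
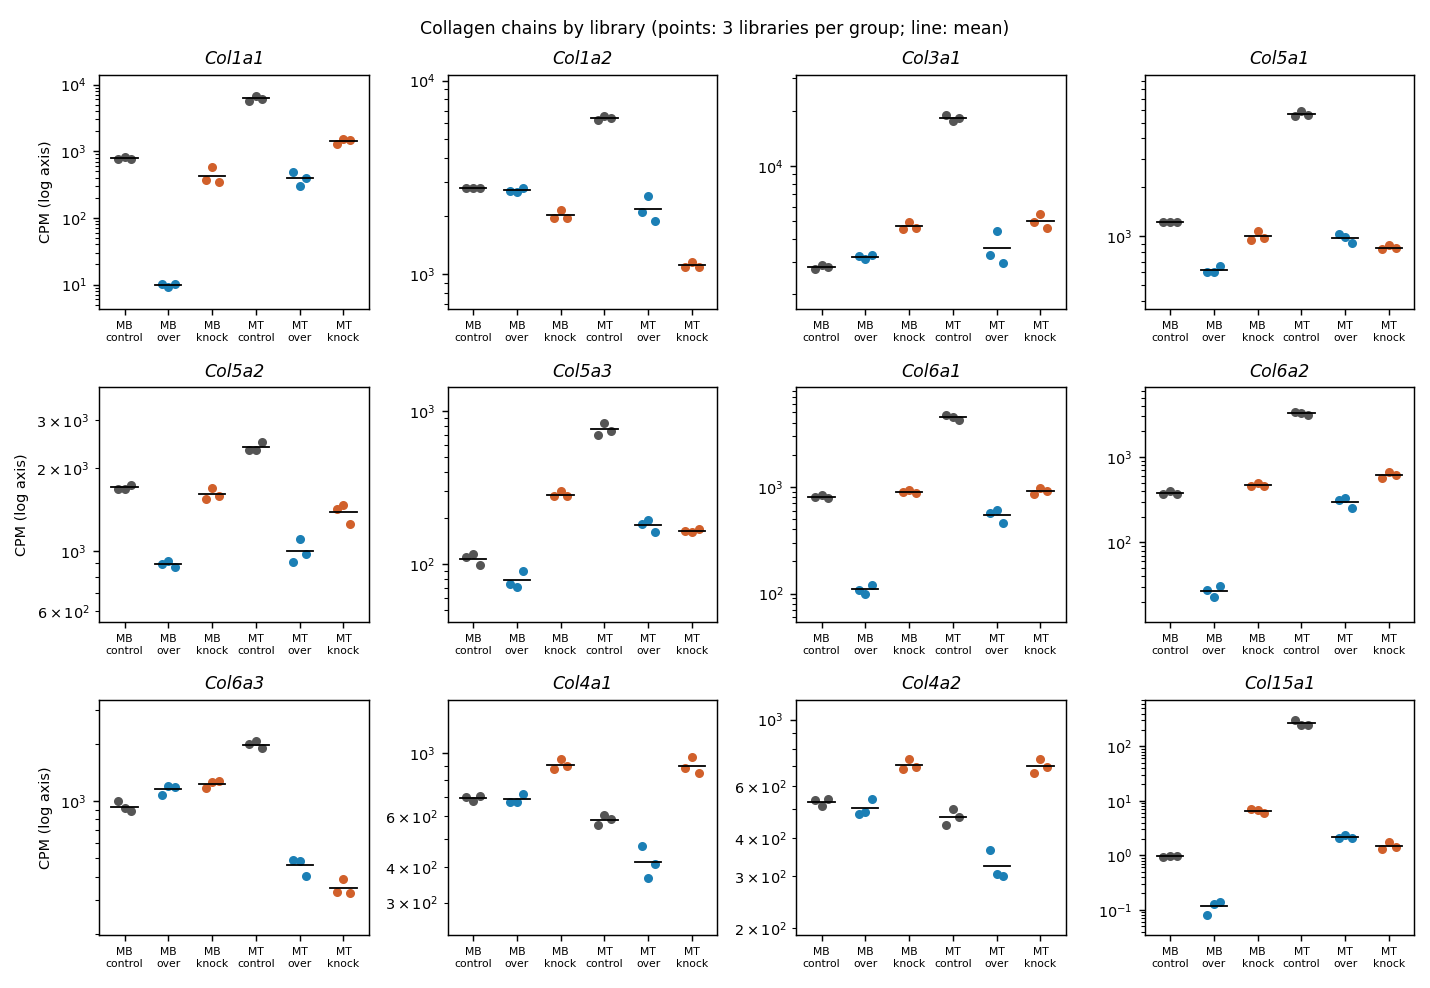
Level in CPM (log axis, scaled separately in each panel) of 12 collagen genes in the 3 libraries of each group (points) with the group mean (line), for myoblasts (MB) and myotubes (MT) of the control, overexpressor (over) and knockout (knock) lines. Col1a1 lies near 10 CPM in overexpressor myoblasts, whereas Col1a2 overlaps the control there, and Col15a1 reaches 247 to 309.6 CPM in control myotubes.

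Type V collagen is a minor component that is copolymerized with type I and limits fibril diameter, and it is built from the chains of Col5a1, Col5a2 and Col5a3. Col5a2 and Col3a1 lie 24614 bases apart on chromosome 1, on opposite strands. Col5a1 (chr2:27886425-28039514) was at 1233, 1220.0 and 1219 CPM in control myoblasts, at 605, 603 and 653 CPM in the overexpressor and at 952, 1078 and 976 CPM in the knockout. Both clones were below every control library (log2 -0.98, SE 0.06, adjusted p = 5.91e-10, and log2 -0.29, SE 0.06, adjusted p = 0.000821). In control myotubes Col5a1 reached 5466, 5872 and 5582 CPM, a rise of 2.20 (SE 0.07, adjusted p = 5.17e-15). It reached 1038, 995 and 916 CPM in the overexpressor, a rise of 0.66 (SE 0.06, adjusted p = 3.79e-08), and 830.5, 881 and 846 CPM in the knockout, where it fell by 0.23 (SE 0.06, adjusted p = 0.00372). The knockout fall did not pass the test with DESeq2 size factors (adjusted p = 0.223).

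Col5a2 moved less. It was at 1689, 1686 and 1746 CPM in control myoblasts and at 2330.1, 2343 and 2504 CPM in control myotubes (log2 0.49, SE 0.07, adjusted p = 1.17e-05). The overexpressor was at 897, 916 and 870.3 CPM in myoblasts, below every control library (log2 -0.93, SE 0.07, adjusted p = 7.6e-09), and at 911, 1104 and 972 CPM in myotubes. Knockout libraries were at 1549, 1695 and 1592 CPM in myoblasts, overlapping the control (log2 -0.08, 95% interval -0.24 to 0.08), and at 1425, 1465 and 1258 CPM in myotubes. In myotubes both clones were lower than control, by a log2 difference of -1.26 (SE 0.07, adjusted p = 6.33e-11) and -0.79 (SE 0.07, adjusted p = 2.69e-08). The log2 ratio of Col5a1 to Col5a2 per kilobase lay between -0.60 and -0.24 in all 9 myoblast libraries and in knockout myotubes, rose to 1.41 ± 0.0846 in control myotubes and stood at 0.16 ± 0.179 in overexpressor myotubes.

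Among the scarcer fibrillar chains, Col11a1 and Col24a1 were higher in the knockout than in the control at both stages. Type XI collagen is the fibril-nucleating collagen best known from cartilage. Col11a1 was at 14.3, 13.6 and 12.5 CPM in control myoblasts and at 77.7, 86.5 and 80.9 CPM in knockout myoblasts (log2 2.60, SE 0.15, adjusted p = 9.19e-11). Overexpressor myoblasts lay at 10.5, 11.9 and 10.8 CPM, a log2 difference of -0.28 with an interval of -0.60 to 0.03. In myotubes both clones exceeded the control, at 25.4, 18.8 and 29.7 CPM in the overexpressor and 43.3, 39.3 and 29.6 CPM in the knockout against 10.3, 8.99 and 10.1 CPM. Both differences passed the test (log2 1.33, SE 0.15, adjusted p = 3.76e-07, and log2 1.93, SE 0.15, adjusted p = 2.77e-09). The 4 chondrocyte markers summed to 86.2 to 103 CPM in control myoblasts and to 109 to 122 CPM in knockout myoblasts. The sum was highest in overexpressor myoblasts, at 176 to 190 CPM, where Col11a1 was not called higher. Acan and Matn1 were at the floor in each of these groups, and the part of these markers in the result was not tested.

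Col24a1, a fibrillar chain known from developing bone, was at 10.8, 9.74 and 8.24 CPM in knockout myotubes and at no more than 2.17 CPM in any other library. The knockout myotubes exceeded control myotubes, at 0.985, 0.938 and 1.46 CPM (log2 3.08, SE 0.26, adjusted p = 6.72e-09). In overexpressor myotubes, at 0.995, 0.738 and 1.58 CPM, the difference from control was -0.04 with an interval of -0.63 to 0.54. Col11a2, the partner of Col11a1, was at 6.64, 6.24 and 6.4 CPM in knockout myotubes and at 2.52, 2.79 and 2.92 CPM in control myotubes (log2 1.23, SE 0.14, adjusted p = 5.06e-07). Its response to differentiation exceeded that of the control by 1.67 in the overexpressor (SE 0.21, adjusted p = 5.02e-06) and 1.08 in the knockout (SE 0.20, adjusted p = 0.000219). Its fall in control cells, by 0.44 (SE 0.14, adjusted p = 0.0118), did not pass the test without control myoblast replicate A (adjusted p = 0.0984) or control myotube replicate A (adjusted p = 0.0525).

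**Figure D4:**
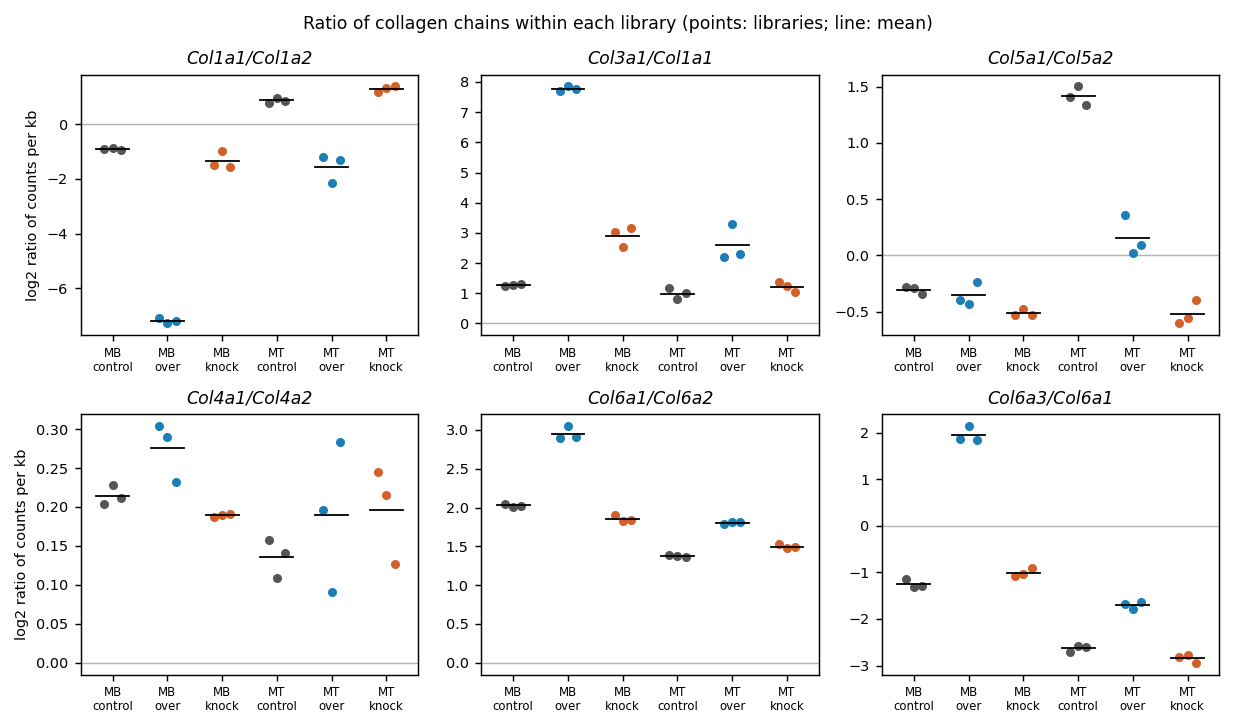
Log2 ratio of counts per kilobase of merged exon (vertical axis, scaled separately in each panel) for 6 pairs of chains, in the 3 libraries of each group (points) with the group mean (line). The Col1a1 to Col1a2 ratio is near -7 in overexpressor myoblasts, while the Col4a1 to Col4a2 ratio stays between 0.09 and 0.30 in all 18 libraries.

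Type VI collagen links the basement membrane of muscle fibres to the surrounding fibrils, and loss of any of its main chains (Col6a1, Col6a2 and Col6a3) causes muscular dystrophy. In overexpressor myoblasts the neighbours Col6a1 and Col6a2, whose start regions are printed above, fell while Col6a3 on chromosome 1 rose. Col6a1 was at 805, 839 and 791 CPM in control myoblasts and 107, 99.1 and 121 CPM in the overexpressor (log2 -2.89, SE 0.10, adjusted p = 9.94e-14). Col6a2 was at 370.4, 395 and 369.7 CPM in the control and 27.5, 22.7 and 30.7 CPM in the overexpressor (log2 -3.81, SE 0.12, adjusted p = 2.99e-14). Col6a3 was at 993, 918 and 883 CPM in the control and 1073, 1199.7 and 1188 CPM in the overexpressor (log2 0.31, SE 0.08, adjusted p = 0.00541). All overexpressor libraries lay below the control range for the first pair and above it for Col6a3. The log2 ratio of Col6a3 to Col6a1 per kilobase was accordingly 1.95 ± 0.169 in overexpressor myoblasts and -1.25 ± 0.0931 in control myoblasts.

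In knockout myoblasts all 3 chains were near or above the control. Col6a1 was at 898, 934 and 872 CPM (log2 0.15, 95% interval -0.05 to 0.35) and Col6a2 at 457, 499.5 and 462 CPM (log2 0.32, SE 0.10, adjusted p = 0.0138). The Col6a2 call was lost without knockout myoblast replicate B (adjusted p = 0.0588). Col6a3 was at 1165, 1250.4 and 1269 CPM, above every control library (log2 0.40, SE 0.08, adjusted p = 0.000468).

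In control differentiation all 3 type VI chains rose, Col6a1 to 4715, 4511 and 4234 CPM (log2 2.47, SE 0.10, adjusted p = 1.3e-13), Col6a2 to 3409, 3302 and 3142 CPM (log2 3.12, SE 0.11, adjusted p = 4.44e-14) and Col6a3 to 1984, 2054 and 1896 CPM (log2 1.09, SE 0.08, adjusted p = 1.81e-09). In the overexpressor the first pair rose by 2.33 and 3.47, to 572, 611 and 462 CPM and to 316, 331 and 250.1 CPM. These responses differed from those of the control by -0.14 (interval -0.42 to 0.14, adjusted p = 0.438) and 0.35 (interval 0.03 to 0.68, adjusted p = 0.0665), neither of which passed the test. Col6a3 instead fell in the overexpressor, to 487, 482 and 406 CPM (log2 -1.33, SE 0.08, adjusted p = 1.06e-10). In the knockout Col6a1 was at 856, 971 and 917 CPM in myotubes, a change of 0.02 with an interval of -0.18 to 0.22, and Col6a2 rose by 0.38 to 565, 665 and 620.0 CPM. Col6a3 fell in the knockout to 332, 388 and 327 CPM (log2 -1.81, SE 0.08, adjusted p = 8.11e-12). The Col6a3 response differed from the control by -2.42 (SE 0.12, adjusted p = 2.1e-11) in the overexpressor and -2.90 (SE 0.12, adjusted p = 2.2e-12) in the knockout.

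The basement membrane chains behaved differently. Col4a1 and Col4a2, which form the common type IV molecule, kept a near constant ratio. Col4a1 was at 698, 678 and 706 CPM in control myoblasts, 671, 674 and 718 CPM in the overexpressor and 879, 949 and 895 CPM in the knockout. Col4a2 was at 538, 513 and 541 CPM in the control, 482, 489 and 542 CPM in the overexpressor and 684, 737 and 696 CPM in the knockout. Knockout myoblasts exceeded control for both, by 0.39 (SE 0.08, adjusted p = 0.000376) and 0.41 (SE 0.08, adjusted p = 0.000198). The overexpressor overlapped the control, with intervals of -0.18 to 0.16 and -0.24 to 0.09.

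In myotubes Col4a1 was at 557, 609 and 586 CPM in the control, 474, 366 and 411 CPM in the overexpressor and 883, 968 and 852 CPM in the knockout. Col4a2 was at 443, 500.3 and 471 CPM, at 367, 304 and 299 CPM and at 661, 739 and 692 CPM in the same order. The overexpressor was lower (log2 -0.49, SE 0.08, adjusted p = 3.17e-05, and -0.54, SE 0.08, adjusted p = 8.35e-06). The knockout was higher (log2 0.63, SE 0.08, adjusted p = 1.34e-06, and 0.56, SE 0.08, adjusted p = 4.3e-06). Their log2 ratio per kilobase stayed at group means from 0.14 to 0.28. With overexpressor and knockout myotubes compared directly, the difference was -1.11 for both genes (SE 0.08).

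Col18a1 and Col4a5 separated the knockout from the other lines. Col18a1, whose C-terminal fragment is the angiogenesis inhibitor endostatin, was at 333, 325 and 330.4 CPM in control and 328, 295 and 336 CPM in overexpressor myoblasts, against 105, 97.9 and 97.7 CPM in the knockout. In myotubes it was at 232, 246 and 224 CPM, at 239.6, 203 and 204 CPM and at 41.5, 42.7 and 45.0 CPM. The knockout was lower than control by a log2 difference of -1.72 (SE 0.07, adjusted p = 9.75e-13) in myoblasts and -2.44 (SE 0.07, adjusted p = 8.59e-15) in myotubes. For the overexpressor the intervals were -0.20 to 0.11 and -0.27 to 0.03, and the direct difference between clones was 1.67 (SE 0.07, adjusted p = 1.24e-12) and 2.32 (SE 0.07, adjusted p = 1.02e-13). Col18a1 was also the 1 tested member that fell in differentiation in all 3 lines, by 0.49, 0.57 and 1.22 on the log2 scale in control, overexpressor and knockout.

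Col4a5, a chain of the type IV network of kidney and muscle, was at 48.4, 44.9 and 47.4 CPM in control, 40.5, 43.4 and 41.1 CPM in overexpressor and 23.7, 25.2 and 26.4 CPM in knockout myoblasts. In myotubes the values were 47.6, 47.8 and 47.5 CPM, 45.9, 54.1 and 54.3 CPM and 22.9, 22.2 and 17.6 CPM. The knockout was lower at both stages (log2 -0.90, SE 0.09, adjusted p = 1.14e-07, and -1.19, SE 0.09, adjusted p = 1.99e-09). The direct difference between the clones was 0.73 (SE 0.09, adjusted p = 1.51e-06) and 1.3 (SE 0.09, adjusted p = 1.91e-09). Its neighbour Col4a6, which starts 1308 bases away on the opposite strand of chromosome X, was named here after its values were seen, and it followed Col4a5 at 1 stage. In the knockout its mean was 1.62 CPM in myoblasts, against 0.928 CPM in the control (log2 0.79, SE 0.24, adjusted p = 0.0098), and 0.249 CPM in myotubes, against 1.16 CPM (log2 -2.16, SE 0.29, adjusted p = 2.77e-06).

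Col15a1, a multiplexin of the zone around muscle fibres, varied widely between groups. It was at 0.918, 0.961 and 0.98 CPM in control myoblasts and at 309.6, 249.7 and 247 CPM in control myotubes, a 282-fold rise (log2 8.14, SE 0.14, adjusted p = 1.92e-17). In the overexpressor it went from 0.0798, 0.129 and 0.139 CPM to 2.08, 2.36 and 2.11 CPM (log2 4.23, SE 0.21, adjusted p = 3.41e-12). In the knockout it started higher, at 7.01, 6.68 and 5.96 CPM, and fell to 1.31, 1.74 and 1.44 CPM (log2 -2.12, SE 0.12, adjusted p = 6.4e-11). The response differed from the control by -3.91 in the overexpressor (SE 0.41, adjusted p = 4.46e-07) and by -10.26 in the knockout (SE 0.18, adjusted p = 3.13e-17). In myotubes the clones were 123-fold and 179-fold below the control.

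Col7a1, the chain of the anchoring fibrils beneath epithelia, was at 14.5, 13.4 and 14.6 CPM in control myoblasts, 1.86, 2.09 and 1.57 CPM in the overexpressor and 2.54, 2.11 and 2.6 CPM in the knockout. Both clones were lower (log2 -2.94, SE 0.16, adjusted p = 4.45e-11, and log2 -2.55, SE 0.15, adjusted p = 1.34e-10). In myotubes the gene was at 5.93, 7.58 and 6.87 CPM in the control, 2.94, 2.98 and 4.08 CPM in the overexpressor and 4.83, 3.83 and 4.52 CPM in the knockout. It thus fell in control differentiation, by 1.06, and rose in the clones, by 0.85 and 0.86 on the log2 scale. The difference in response was 1.91 (SE 0.21, adjusted p = 9.31e-07) and 1.92 (SE 0.21, adjusted p = 6.26e-07).

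Among the remaining kinds, Col8a2, which forms hexagonal networks with Col8a1, was low in both clones at both stages. Control myoblasts were at 45.8, 47.4 and 46.0 CPM, overexpressor myoblasts at 1.72, 1.57 and 1.5 CPM and knockout myoblasts at 5.16, 6.17 and 4.72 CPM. Neither clone overlapped the control (log2 -4.86, SE 0.13, adjusted p = 7.13e-15, and log2 -3.12, SE 0.12, adjusted p = 2.8e-13). In myotubes the control was at 22.0, 29.3 and 25.9 CPM, the overexpressor at 2.39, 2.8 and 2.31 CPM and the knockout at 1.55, 1.47 and 1.63 CPM. The groups were again apart (log2 -3.36, SE 0.12, adjusted p = 1.05e-13, and log2 -4.05, SE 0.13, adjusted p = 1.93e-14).

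The fibril-associated chain Col14a1 and the membrane-spanning chain Col23a1 were scarce in all myoblasts and present in control myotubes. Col14a1 was at 18.5, 16.2 and 13.9 CPM in control myotubes and at no more than 1.22 CPM in any other library. Col23a1 was at 19.3, 16.3 and 16.3 CPM in control myotubes and at no more than 0.529 CPM elsewhere. The rise in control cells was 4.10 (SE 0.26, adjusted p = 1.6e-10) and 5.94 (SE 0.24, adjusted p = 1.73e-13). The response differed in the overexpressor by -5.05 (SE 0.49, adjusted p = 1.77e-07) and -7.06 (SE 0.48, adjusted p = 2.07e-09), and in the knockout by -4.38 (SE 0.46, adjusted p = 3.73e-07) and -4.06 (SE 0.48, adjusted p = 1.71e-06).

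Col17a1, a hemidesmosome protein of epithelia, was highest in 1 group. It was at 7.86, 6.41 and 7.23 CPM in overexpressor myoblasts and at no more than 1.46 CPM in any other library. Overexpressor myoblasts exceeded control by 3.23 (SE 0.28, adjusted p = 3.18e-08) and knockout by 2.52 (SE 0.27, adjusted p = 2.19e-07), and the gene fell by 2.78 on differentiation in that clone (SE 0.26, adjusted p = 3.44e-08). Col16a1, a fibril-associated chain, stayed between 21.1 and 41.4 CPM in all libraries. It was lower in overexpressor than in control myotubes by a log2 difference of -0.44 (SE 0.12, adjusted p = 0.00589), with overlapping libraries, and the call was lost without overexpressor myotube replicate C (adjusted p = 0.112). Col13a1, chosen here after its values were seen, had 0 counts in all 9 myoblast libraries and 2.67, 2.24 and 2.2 CPM in control myotubes, at least 39.4-fold higher with the myoblasts set to 3 counts per library.

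Most tested collagen genes changed on differentiation in every line, in different directions. In control cells 20 members rose and 8 fell (background 33.9% higher and 28.8% lower, 62.8% in all), with a median change of 1.17 against 0.07 over all genes. With the 3 genes at the floor in 1 of the stages set to their bounds, that median was 1.11. In the overexpressor 19 rose and 11 fell (background 29.8% and 33.0%, 62.8% in all; median 0.35 against -0.02), and in the knockout 12 rose and 18 fell (background 29.8% and 35.6%, 65.4% in all; median -0.23 against -0.08). These 3 responses share no library. Of the 20 genes that rose in the control, 11 (55.0%) also rose in the overexpressor (57.9% of its 19) and 8 (40.0%) in the knockout (66.7% of its 12), while 4 and 7 fell. Over all genes, of the 6074 that rose in the control 60.4% also rose in the overexpressor (68.7% of its 5341) and 55.8% in the knockout (63.5% of its 5330), while 12.1% and 15.3% fell. The 6 genes that rose in all 3 lines were Col1a1, Col6a2, Col10a1, Col13a1, Col25a1 and Col26a1. Col1a2 and Col6a3 rose in the control and fell in both clones.

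Tested as a difference in response, 8 members responded more and 19 less in the overexpressor than in the control (background 16.6% and 22.3%, 39.0% in all; median -0.56 against -0.05). Scaled by library totals in place of TMM, that split was 10 and 14. In the knockout 3 responded more and 22 less (background 20.2% and 29.9%, 50.1% in all; median -1.39 against -0.12). Among fibrillar genes 7 of 11 responded less in the overexpressor and 8 of 11 in the knockout. Without overexpressor myotube replicate C, the library that stood furthest apart, the overexpressor split was also 10 and 14.

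Collagen chains are hydroxylated, glycosylated and folded in the endoplasmic reticulum before secretion. Of the 24 genes of that machinery, 23 were tested. In control differentiation 12 rose and 7 fell, in the overexpressor 1 rose and 17 fell, and in the knockout 1 rose and 18 fell (medians 0.32, -0.55 and -0.50). Over all genes tested, 33.9% rose and 28.8% fell in the control, 29.8% and 33.0% in the overexpressor and 29.8% and 35.6% in knockout cells. In myotubes 1 gene was higher and 21 were lower than control in each clone (medians -0.78 and -0.78), where 26.2% and 30.9% of all genes were higher and lower in the overexpressor and 31.0% and 37.0% in the knockout. The gene that was higher in each case was Tmem38b, an endoplasmic reticulum cation channel. In myotubes it was at 76.4 CPM ± 5.01 in the control, against 148 ± 17.3 for the overexpressor and 133 ± 14.3 for the knockout. The lowest of the list was P3h3, a prolyl hydroxylase of the collagen helix, at 36.1 CPM ± 1.73 in control myotubes, against 5.38 ± 0.586 for the overexpressor and 7.90 ± 0.724 for the knockout. P4ha3, a subunit of prolyl 4-hydroxylase, fell most on differentiation in each line among the called genes of the list, by 0.90 in control, by 2.03 in overexpressor and by 2.31 in knockout cells. Tested as a difference in response, 1 gene of the list responded more and 19 less in the overexpressor, and 19 responded less in the knockout while 4 did not pass the test. Over all genes, 16.6% responded more and 22.3% less in the overexpressor, and 20.2% and 29.9% in the knockout.

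Outside the cell, procollagen ends are trimmed and chains are crosslinked. Of 19 genes of maturation and crosslinking, 17 were tested, and the list did not move as 1 block. In myotubes 2 were higher and 12 lower than control in the overexpressor, and 3 higher and 11 lower in the knockout (medians -1.20 and -0.97), against 26.2% higher and 30.9% lower, and 31.0% and 37.0%, over all genes. Loxl2, a lysyl oxidase of the basement membrane, was the highest in the overexpressor, at 37.8 CPM ± 7.52 against 7.40 ± 1.52 in control myotubes (log2 2.36, SE 0.14, adjusted p = 6.95e-11). Fmod, a small proteoglycan that binds fibrillar collagen, was the lowest, at 5.52 CPM ± 2.45 against 569.5 ± 63.9 (log2 -6.70, SE 0.27, adjusted p = 2.31e-11). In control differentiation 9 rose and 8 fell, against 33.9% and 28.8% over all genes. Dcn, a proteoglycan that also stands among the fibroblast markers, rose by 4.63 (SE 0.19, adjusted p = 6.34e-13). In the overexpressor 6 rose and 8 fell and in the knockout 6 rose and 8 fell on differentiation, against 29.8% and 33.0%, and 29.8% and 35.6%, over all genes.

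Of 13 receptor genes 10 were tested. In myotubes 5 were higher and 4 lower in the overexpressor and 2 higher and 4 lower in the knockout. The shares over all genes were 26.2% and 30.9% for the former and 31.0% and 37.0% for the latter, close to the knockout counts. The integrin chain Itga11, which binds fibrillar collagen, was at 24.9 CPM ± 2.67 in control myoblasts and 0.237 ± 0.172 in overexpressor myoblasts (log2 -6.70, SE 0.32, adjusted p = 8.47e-11), and Itga10, its relative in cartilage, was at 1.72 ± 0.0462 and 10.3 ± 1.27 (log2 2.58, SE 0.11, adjusted p = 2.12e-12). In knockout myoblasts the intervals against control included 0 for both, and the direct difference between overexpressor and knockout was -6.99 (SE 0.32, adjusted p = 2.86e-11) for Itga11 and 2.62 (SE 0.11, adjusted p = 1.04e-12) for Itga10. Ddr2, a tyrosine kinase receptor of fibrillar collagen, rose in control differentiation from 123 CPM ± 4.06 to 302 ± 23.7 (log2 1.3, SE 0.17, adjusted p = 5.76e-06). It fell in the overexpressor by 0.47 (SE 0.17, adjusted p = 0.0215) and in the knockout by 0.95 (SE 0.17, adjusted p = 0.000157), and its response differed from the control by -1.78 (SE 0.24, adjusted p = 2.01e-05) and -2.25 (SE 0.24, adjusted p = 1.54e-06).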

How the data were processed

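Polyadenylated RNA of 18 libraries (6 groups of 3) was measured. The authors deposited raw read counts per gene ID, made with STAR 2.7.9a, featureCounts and Subread 2.0.3 on mm10, per the submitters' processing notes. The strand setting and annotation release are not given in the sources used here. IDs were matched to GENCODE M21 (55190 of 55450), and unmatched IDs held 0.00589% of counts. Genes passing edgeR's filterByExpr (17912) were tested by its quasi-likelihood test (edgeR 4.0.16, limma 3.58.1, R 4.3.3) with TMM factors, 1 coefficient per group and 12 residual degrees of freedom. P-values were adjusted by Benjamini-Hochberg over all tested genes at 0.05, and intervals are 95%. The test was also tried on simulated counts, for 1 comparison and with the spread taken from the fit to these data. Alternatives were DESeq2 1.42.0, 2 other scalings, no filter, the compared groups only, a replicate block and leaving out libraries. Groups came from the labels. Total counts per library were 41544358 to 79140702, and floors of 3 counts cover counting error only. Promoter sequences are from RefSeq (GRCm38.p6). Described in full were Col1a1, Col1a2, Col3a1, Col5a1, Col5a2, Col4a1, Col4a2, Col6a1, Col6a2 and Col6a3. The 2 highest and 2 lowest called members reaching 5 CPM in each comparison were added. Col5a3 and Col6a4 were counted and not described. Of the other lists, the highest or lowest called genes were named. The members and lists were chosen with earlier results of these data known.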

Additional observations from a re-analysis of the deposited data

Results flagged for a closer look

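For the genes below, the change on differentiation in a clone differed from the control line's by the interaction test in edgeR at an adjusted p under 0.05. Only members chosen by the rule given above for description in full are listed, not all that passed. Among the 38 tested members, 8 responded more and 19 less in the overexpressor, and 3 and 22 in the knockout. Each value is the clone's log2 change minus the control's, and both sets use the same control libraries.

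In the overexpressor the response exceeded that of the control for Col1a1 (2.34), Col7a1 (1.91), Col11a2 (1.67), Col11a1 (1.61) and Col8a2 (1.5). It was lower for the fibrillar chains Col3a1 (-2.55), Col5a1 (-1.54), Col1a2 (-1.52), Col24a1 (-1.41) and Col5a2 (-0.33). It was lower for the basement membrane chains Col15a1 (-3.91), Col4a1 (-0.47) and Col4a2 (-0.47). It was also lower for Col23a1 (-7.06), Col14a1 (-5.05), Col17a1 (-2.97) and Col6a3 (-2.42). The value for Col5a2 did not pass the test without overexpressor myotube replicate C (adjusted p = 0.145), under library totals (adjusted p = 0.328) or under size factors from DESeq2 (adjusted p = 0.127).

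In the knockout the response exceeded that of the control for Col7a1 (1.92) and Col11a2 (1.08). It was lower for the fibrillar chains Col3a1 (-2.61), Col5a1 (-2.44), Col1a2 (-2.06), Col1a1 (-1.24), Col5a2 (-0.71) and Col11a1 (-0.67). It was lower for Col15a1 (-10.26) and Col18a1 (-0.72), and for the type VI chains Col6a3 (-2.90), Col6a2 (-2.74) and Col6a1 (-2.44). It was also lower for Col14a1 (-4.38), Col23a1 (-4.06), Col17a1 (-1.62) and Col8a2 (-0.94).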

How the results depend on the processing

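The counts of called collagen genes in all 11 comparisons stayed within 1.5 times the reported ones under every alternative run. Of 196 called fold changes of the collagen genes described, none changed sign among 2555 alternative values, and 60 values, in 19 fold changes, no longer passed the test. With library totals, Col4a1 and Col4a2 lost their difference in response in the overexpressor (adjusted p = 0.0513 and 0.0503) and Col6a2 its rise in the knockout (adjusted p = 0.0734). The Col5a2 fall in the knockout was lost with DESeq2 size factors (adjusted p = 0.283), without knockout myoblast replicate B (adjusted p = 0.062) and without knockout myotube replicate C (adjusted p = 0.0817). Library totals moved the median of all genes from 0.07 to -0.17 for control differentiation, from -0.08 to -0.24 for knockout differentiation, from -0.05 to 0.14 for the overexpressor response and from -0.04 to 0.11 for overexpressor against control myotubes. With DESeq2 size factors the medians moved from -0.08 to 0.04 and from -0.12 to 0.04 for knockout differentiation and response.

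Under a replicate block by letter, the counts were 20, 25 and 28 for the myoblast comparisons (overexpressor and knockout against control, then clone against clone), 27, 31 and 33 for the same in myotubes, 28, 29 and 30 for differentiation in control, overexpressor and knockout, and 27 and 25 for the responses. Same-letter correlations of deviations from the group mean ran from -0.358 to 0.264 (median -0.016), with 4 of 45 over 0.1. Different-letter correlations ran from -0.315 to 0.446 (median 0.00904), with 17 of 90 over 0.1. Libraries of the same letter were thus no more alike than others, which does not show that no libraries shared a batch. Leaving out 1 library gave 20 to 21, 21 to 23 and 26 to 29 in myoblasts, 27 to 28, 29 to 32 and 28 to 32 in myotubes, 26 to 28, 25 to 29 and 28 to 30 for differentiation, and 24 to 27 and 25 to 28 for the responses.

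Without Col1a1, Col1a2 and Col3a1 the collagen share was 0.896, 0.529 and 0.918% of counts in control, overexpressor and knockout myoblasts and 2.01, 0.509 and 0.622% in myotubes. Scaled to the longest coding transcript, the chain ratios averaged over the 6 groups were -2.54 (Col1a1 to Col1a2), 3.46 (Col3a1 to Col1a1), -0.54 (Col5a1 to Col5a2), 0.34 (Col4a1 to Col4a2), 1.17 (Col6a1 to Col6a2) and -1.10 (Col6a3 to Col6a1). Genes near the floor, such as Col23a1 and Col14a1 in the clones, have fold changes limited by depth.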
